A study of Mus musculus with 8 samples.

Results

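The Wnt ligands, their receptors, and the secreted proteins that oppose or amplify them were examined in the adult oviduct on GD2 after neonatal exposure to genistein (Gen), a soy phytoestrogen. Members were chosen by gene name: non-control probes for a name that starts with Wnt, Fzd, Sfrp, Dkk or Rspo and goes on with a number, and probes for Lrp5, Lrp6, Wif1, Frzb, Axin2, Lef1, Tcf7, Ctnnb1, Ror1 or Ror2. The rule found 73 of the 41174 non-control probes and 51 of the 27962 gene names, and 20 of the 51 genes had more than 1 probe. Gen was given under the skin to newborn CD-1 females, at 50 mg/kg/day in corn oil on each day from PND1 to PND5, and controls were given the oil alone. Both groups were superovulated and mated when 6–8 weeks old, and oviducts were taken 48 hr after hCG and freed of embryos. Both groups therefore carried the corn oil injections, the gonadotropins and the mating, and each group had 4 independent samples from an outbred stock. How many mice went into an array sample is not given in the sources used here. Each RNA was labeled with Cy3 and hybridized to 1 Agilent whole mouse genome array.

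Wnt proteins are secreted lipid-modified ligands that bind Frizzled (Fzd) receptors. With the co-receptors Lrp5 and Lrp6 they stabilize β-catenin (Ctnnb1), which acts with Tcf and Lef factors in the nucleus, and through Ror receptors and the planar polarity proteins they act without β-catenin. Sfrp proteins, Frzb and Wif1 bind the ligands, Dkk1 binds the co-receptors, and R-spondins (Rspo) prolong receptor life at the cell surface. In the female reproductive tract Wnt4, Wnt5a and Wnt7a are required for normal development, Wnt7a being a product of the epithelium and Wnt5a mainly of the mesenchyme beneath it.

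Values are scaled signals: the background-adjusted intensity of a probe after the 75th percentile of every array was set to a common level, with group means taken on the log2 scale. Signals of different probes are not comparable as levels. On the control arrays 25359–28934 probes were well above background by the scanner software, and on the Gen arrays 29527–31481, and precision is limited by having 4 arrays in each group. The lowest scaled signal called well above background was 28.5–65.9 on control arrays and 14.5–20.9 on Gen arrays, so the detection limit was lower in the Gen group. All control arrays lay on 1 slide and all Gen arrays on another, and slide and treatment cannot be told apart. The oviduct markers of the secretory and ciliated epithelium, such as Ovgp1 and Foxj1, were well above background on all 8 arrays. Arrays of the same group correlated at 0.979–0.990 and arrays of different groups at 0.970–0.984, over probes that all 8 arrays detected.

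A gene was tested when a probe of it was well above background on every array of 1 group or of both, and it was represented by the brightest such probe. This held for 45 of the 51 genes, 17 of 19 ligands, 14 of 14 receptors and co-receptors, 7 of 10 antagonists, 3 of 4 R-spondins and all 4 of Ctnnb1, Lef1, Tcf7 and Axin2. Of the 45, 37 were well above background on all 8 arrays, and 8 passed only through the Gen group (Wnt1, Wnt8a, Wnt9b, Wnt10a, Wnt10b, Fzd9, Rspo2 and Sfrp5). Wnt3a, Wnt8b, Rspo4 and Wif1 were well above background on some arrays and were not tested, and Dkk1 and Dkk4, both antagonists, were well above background on none. Wnt8b was detected in this way on 2 control arrays but none of the Gen group. With the Gen arrays raised to their detection limits it was 2.13-fold lower in the Gen group, or 1.26-fold without control replicate 1. This is no bound, since control replicates 2 and 3 read 15.9 and 13.2, under their own limits of 33.6 and 65.9. The detection limit of an array is its lowest signal called well above background. Here, and for the bound given for Wnt10b, every array of the dimmer group was raised to its own limit before the group means were compared. No member probe was saturated.

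Most of the family differed little between Gen-treated mice and controls. At an unadjusted limma p under 0.01, the threshold that the study applied to its arrays, Wnt7a, Wnt5a and Fzd3 were down-regulated. Rspo2, which was tested only through its detection in the Gen group, where it was higher, passed the same threshold as up-regulated. These 4 genes were 8.89% of the 45, where 7.70% of all 19418 gene names tested were called, 4.35% as higher and 3.35% as lower in Gen-treated mice. Among members well above background on all 8 arrays 3 of 37 (8.11%) were called, against 6.83% of all such gene names. No member had an adjusted p under 0.05 (limma with Benjamini-Hochberg adjustment), where 1.24% of all gene names did. An unadjusted p under 0.05 was found for 11 of the 45 members, beside 3833 of the 19418 gene names. The median log2 difference of the members was 0.02 and that of all gene names 0.03. On the log2 scale 27 members lay within 0.25 of 0, and for 37 members the 95% confidence interval of the difference lay inside 1 log2 unit in either direction. In whole oviducts, fewer cells of a type and less RNA per cell cannot be told apart. The count of called members was 2 without control replicate 2 (Fzd3 and Wnt5a) and between 3 and 6 when any other array was left out. Of all tested probes 4.6% were called without control replicate 2, and 4.98–8.24% when any other array was left out.

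**Figure D1:**
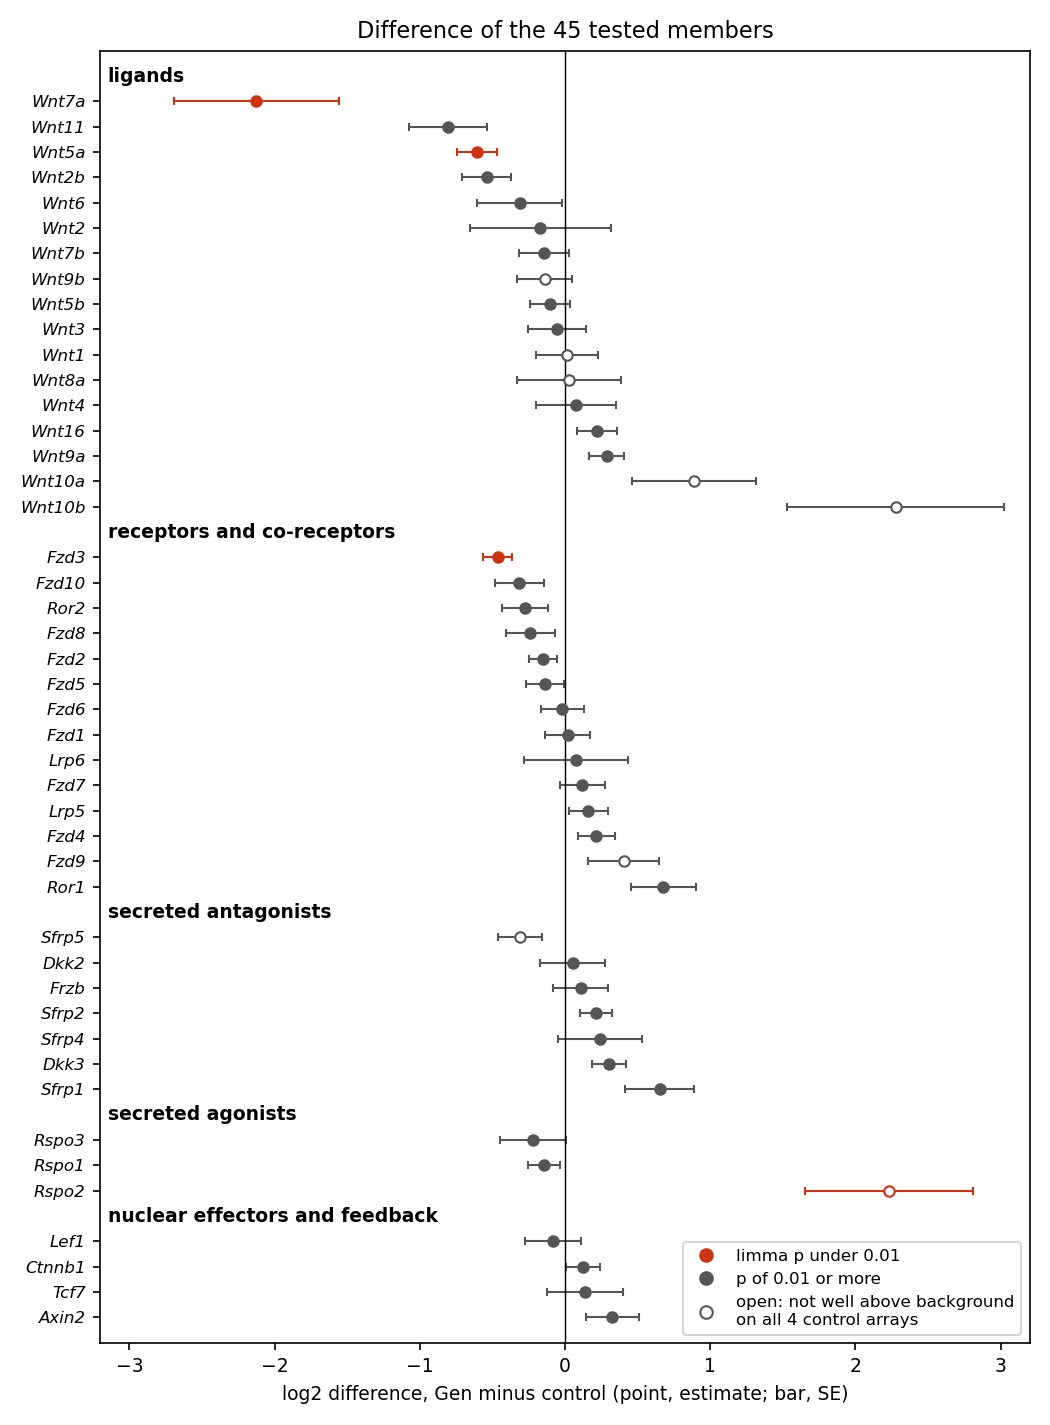
Log2 difference (Gen minus control, horizontal axis) of the 45 tested members, grouped by role, with the standard error as a bar. Red points had a limma p under 0.01 and open points were not well above background on all 4 control arrays. Wnt7a lies farthest to the left at -2.13. The points of Wnt10b and Rspo2, far to the right, are open and rest on control signals mostly under the detection limit, so that their place on the axis is no measured size.

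Wnt7a had the largest fall among the 45 tested members. The study also reported lower Wnt7a by RT-PCR when it checked its arrays. The array probe lies at chr6:91447162-91447221 on the minus strand (mouse build mm7). Its first 30 bases are given here because the fall on these arrays rests on this probe alone.
Wnt7a: cctcagcggtgggtcagtcagtgtctcaca
The 4 control arrays had signals of 254, 931, 494 and 681 and the 4 Gen arrays 159, 88.0, 295 and 53.1. Of the Gen arrays, 3 lay below every control array, and Gen replicate 3 lay above control replicate 1, the lowest control, so the groups overlapped. Group means were 531 in controls and 122 in Gen-treated mice, a log2 difference of -2.13 (SE 0.57, 95% confidence interval -3.43 to -0.83, limma adjusted p = 0.110), or 4.36-fold lower. The exact permutation test over the 8 arrays gave a two-sided p of 0.0571, where the smallest p that 4 arrays against 4 allow is 0.0286. Wnt7a kept its direction in all 8 fits that left out 1 array but lost the call in 5 of them, with a log2 difference of -1.86 without control replicate 2, -2.16 without control replicate 3, -2.01 without control replicate 4, -1.97 without Gen replicate 2 and -1.73 without Gen replicate 4. In these 5 fits the unadjusted p lay between 0.0112 and 0.0162.

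Wnt5a, a ligand known mostly for signaling without β-catenin, fell less and with less spread. Its probe and that of Wnt4 span a stretch of genome longer than the probe, at chr14:25948244-25952114 and chr4:136674216-136674784 (both plus strand, mm7), and so join separate blocks of the gene. They are shown whole to give the parts of the 2 transcripts that were read.
Wnt5a: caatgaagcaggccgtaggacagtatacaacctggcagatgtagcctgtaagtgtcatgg
Wnt4: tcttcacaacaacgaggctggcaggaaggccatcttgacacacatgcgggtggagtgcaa
The Wnt5a signal was 401, 335, 354 and 333 on the control arrays and 214, 254, 279 and 194 on the Gen arrays, with every Gen array below every control array. Its log2 difference was -0.61 (SE 0.14, 95% confidence interval -0.92 to -0.29, limma adjusted p = 0.0751), or 1.52-fold lower (exact permutation test, two-sided p = 0.0286). The call held in all 8 fits that left out 1 array, with differences between -0.69 and -0.52. Without scaling between arrays the difference was -0.37 (adjusted p = 0.606) and the call was lost, in a fit in which the median of all tested probes was 0.26.

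Wnt4, the ligand needed for formation of the Müllerian duct, did not pass the test. Its signals were 1926, 2346, 3003 and 2946 in controls and 2756, 4486, 2090 and 1911 in Gen-treated mice. The 4 Gen arrays spanned the whole range of the controls, and Gen replicate 2 lay above all others. The log2 difference was 0.08 (SE 0.28, 95% confidence interval -0.56 to 0.71, limma adjusted p = 0.900). It turned to -0.18 without Gen replicate 2 and to -0.05 without control replicate 1.

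**Figure D2:**
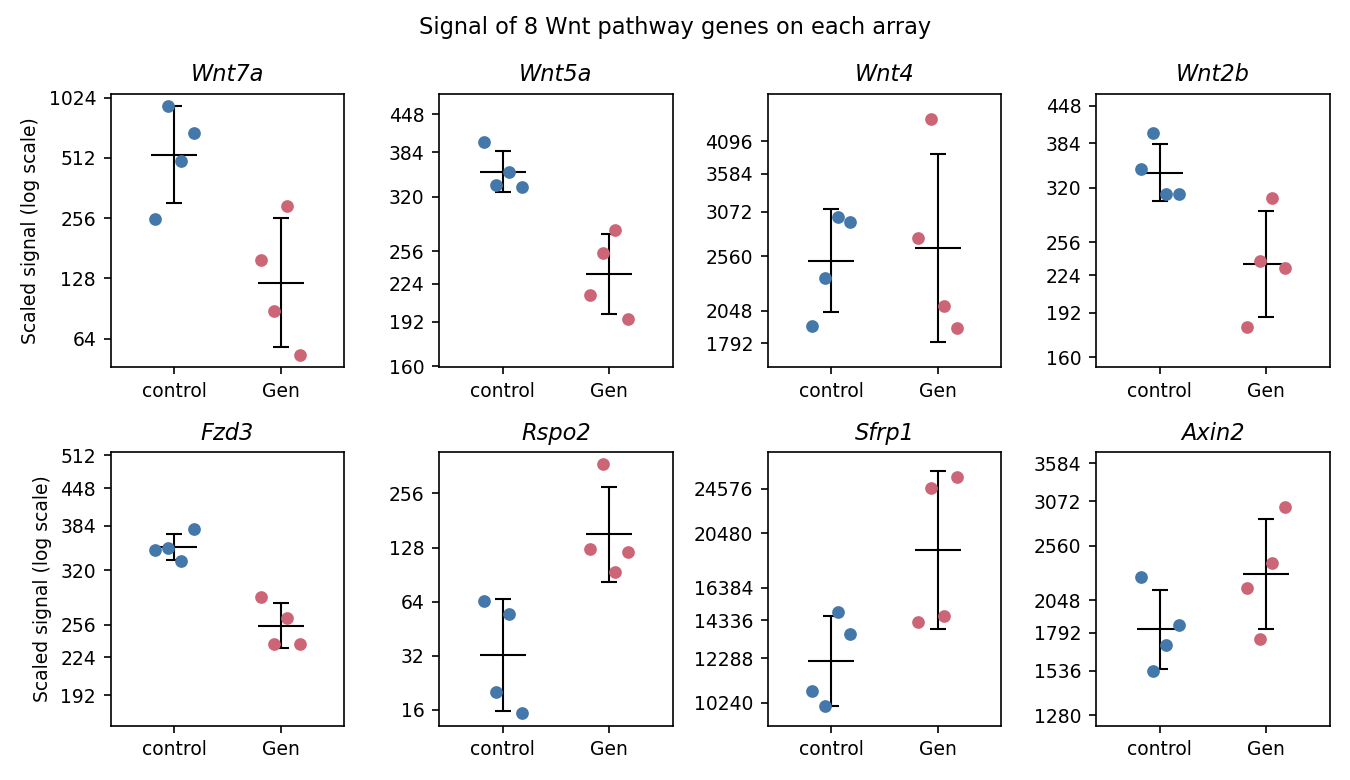
Scaled signal (vertical axis, log scale, a separate range for each gene) of 8 members on the 4 control and 4 Gen arrays, with the group mean and SD of log2 signals as a line and bar. The Gen points lie entirely below the control points for Wnt5a, Wnt2b and Fzd3 and entirely above them for Rspo2. The groups overlap for Wnt7a, Wnt4, Sfrp1 and Axin2.

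Among the other ligands Wnt2b had the next lowest p. Control signals were 346, 400, 312 and 312 and Gen signals 181, 237, 307 and 230, so that the highest Gen array lay just under the lowest control. The log2 difference of -0.54 (SE 0.17, limma adjusted p = 0.146) missed the threshold, and without Gen replicate 3 it passed, at -0.67. Wnt2b, Wnt5a, Fzd3 and Rspo2 were the 4 of 45 members whose groups did not overlap, where 12.6% of all gene names had groups that did not overlap.

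The ligands that follow were chosen after their values were seen, except for Wnt10b and Wnt3. Wnt11, which acts largely without β-catenin, had 8743, 15989, 12817 and 13369 in controls and 9131, 4574, 9417 and 6582 in Gen-treated mice. The lowest control lay among the Gen arrays, and the log2 difference was -0.80 (SE 0.27, limma adjusted p = 0.167; exact permutation test, two-sided p = 0.0857). Wnt9a had a log2 difference of 0.29 (SE 0.12, limma adjusted p = 0.245), and its second probe, detected on the Gen arrays alone, was too dim to bound a difference. Wnt10b, a β-catenin-dependent ligand, was not well above background on any control array and was well above background on all 4 Gen arrays, with Gen signals of 59.6, 220, 45.1 and 27.7. As a bound on the group means alone, the Gen mean was at least 1.60-fold the control mean (limma adjusted p = 0.160, in a fit that Wnt10b entered through the Gen group alone). This bound was 1.06-fold without Gen replicate 2, the highest array, and 2.11-fold without Gen replicate 4. After normexp background correction the bound was 1.18-fold. The control signals of Wnt10b were 40.1, 7.49, 15.6 and 6.37, and all but the first lay under the detection limit of their array. Gen replicate 4, at 27.7, lay under control replicate 1 and under the detection limit of every control array (28.5–65.9). Its detection therefore rests on the lower limit of the Gen arrays. The brightest probe of Wnt3 gave a log2 difference of -0.06 and the other probe 0.33, neither past the test. Of the 17 tested ligands 10 had a difference below 0 and 7 above, beside 8804 below and 10614 above among all 19418 gene names tested.

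Some ligand genes lie side by side in the genome, and none of these neighbors was called. The probes of Wnt6 and Wnt10a are 19207 bases apart on chromosome 1, and those of Wnt10b and Wnt1 20724 bases apart on chromosome 15. Wnt6 had a log2 difference of -0.31 (SE 0.29) and Wnt1, detected on 2 control arrays, had 0.02 (SE 0.21) beside the bound given for Wnt10b. Wnt10a was detected on 2 control arrays and all Gen arrays, and with the control arrays raised to their detection limits it was 1.64-fold higher in Gen-treated mice, or 1.24-fold without Gen replicate 2. On chromosome 11 the probes of Wnt9b and Wnt3 are 88468 bases apart, with differences of -0.14 and -0.06, and those of Wnt3a and Wnt9a 84978 bases apart, where Wnt3a was not tested.

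Among receptors Fzd3, a Frizzled of planar polarity and axon guidance, was down-regulated with both of its probes. They lie at chr14:60062430-60062490, of which the first 30 bases are shown, and at chr14:60072091-60094840, which joins separate blocks of the gene and is shown whole (both minus strand, mm7). The sequences are shown because 2 parts of the transcript gave the same call.
Fzd3 first probe: tggggtgtgaacacatccaaaccctaagga
Fzd3 second probe: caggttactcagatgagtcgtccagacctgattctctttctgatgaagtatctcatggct
The first probe, the brighter, read 348, 351, 332 and 378 in controls and 286, 237, 264 and 237 in Gen-treated mice. No Gen array reached a control array. Its log2 difference was -0.46 (SE 0.10, limma adjusted p = 0.0704; exact permutation test, two-sided p = 0.0286), a 1.38-fold fall, and the call held in all 8 fits without 1 array. The second probe had control signals of 164, 117, 109 and 127 and Gen signals of 92.8, 77.2, 79.8 and 57.9, a log2 difference of -0.75 (SE 0.18, limma adjusted p = 0.0862). Fzd3 was the only gene of the 15 with several tested probes for which all of them were called. Without scaling between arrays its difference was -0.22 (adjusted p = 0.749) and the call was lost, in a fit in which the median of all tested probes was 0.26.

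The remaining receptors did not pass the test. Fzd10 had a log2 difference of -0.31 (SE 0.17, limma adjusted p = 0.344) with its brighter probe and -0.57 with the other. Ror1 and Ror2, receptor tyrosine kinases that bind Wnt5a, had probes that differed in sign. For Ror1 the first 30 bases of both probes are shown, since the 2 gave differences of opposite sign. They lie at chr4:99820118-99820177 and chr4:99817951-99818010 (plus strand, mm7).
Ror1 brighter probe: gctatagagatgtataagatgcacaataaa
Ror1 dimmer probe: atgggtttagtaatcaggaagtgattgaaa
The brighter probe read 93.6, 74.6, 90.6 and 120 in controls and 156, 141, 107 and 211 in Gen-treated mice, a log2 difference of 0.68 (SE 0.22, limma adjusted p = 0.159). With the dimmer probe 2 control arrays at 124 and 181 stood far above the other 2 at 28.8 and 24.5, the Gen arrays lay between 24.5 and 41.9, and the difference was -0.96 (SE 0.64, limma adjusted p = 0.436). The brighter probe passed the threshold under 4 of the 18 alternatives, at 0.92 without scaling, 0.68 with the replicate block, 0.80 without control replicate 4 and 0.84 without Gen replicate 3. In the fit without scaling the median of all tested probes was 0.26. Averaged over both probes Ror1 had a difference of -0.14. Ror2 had -0.27 with its brighter and 0.26 with its dimmer probe, and Fzd8 had -0.24 and 0.15.

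Fzd2 was read by 2 probes of the same sign and unequal size, and is named here after its values were seen. The brighter probe gave a log2 difference of -0.15 (SE 0.09, limma adjusted p = 0.412) and the other -1.11 (SE 0.41, limma adjusted p = 0.199). Among the 70 of 73 member probes that were compared, the brighter Fzd2 probe was also the most like a probe of another member. Over 2392 pairs of these probes from different genes it shared 42 identical bases, in an ungapped overlap of 50, with a probe of Fzd7, and no other pair shared more than 30. For both probes 30 aligned bases are shown, with the identical bases in capitals, from chr11:102715340-102715399 and chr1:59735681-59735740 (plus strand, mm7).
Fzd2: TcACAGTCTaCATGATCAAaTACCTcATGA
Fzd7: TtACAGTCTtCATGATCAAgTACCTgATGA
In this window 26 of 30 bases are identical, and the longest run shared by any pair was 14 bases. The Fzd7 probe had a log2 difference of 0.09 and a second probe of Fzd7 0.12. Whether RNA of Fzd7 adds to the signal of the Fzd2 probe was not tested.

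**Figure D3:**
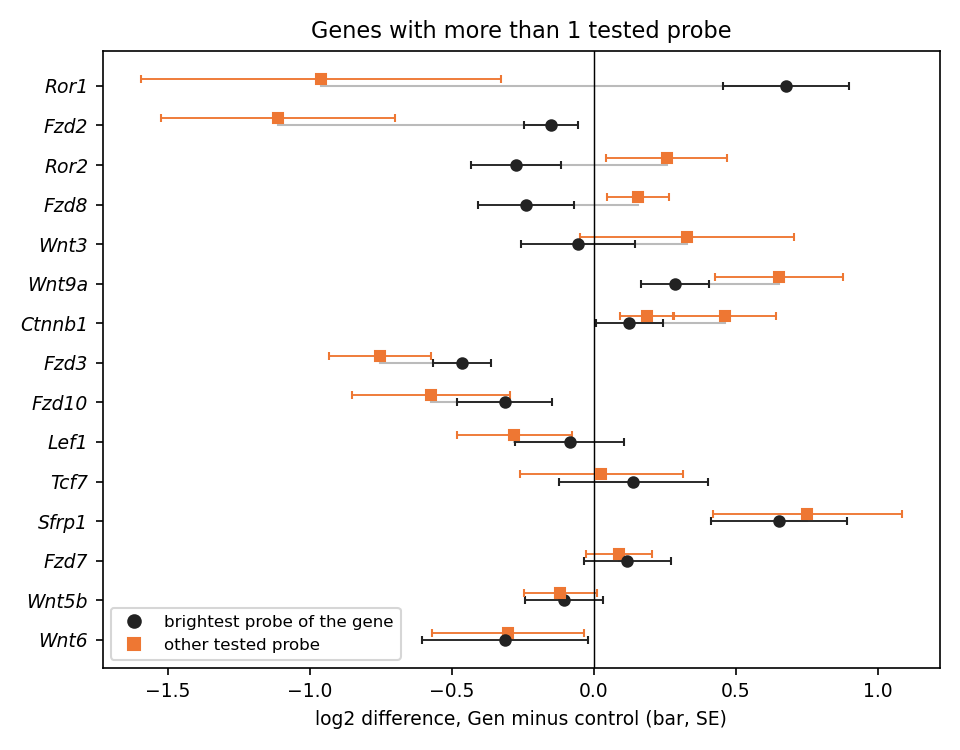
Log2 difference (Gen minus control, horizontal axis, bar SE) of each tested probe of the 15 member genes with more than 1 tested probe, ordered by the gap between probes. The probes had the same sign in 11 genes (in Wnt9a with 1 probe detected on Gen arrays alone) and opposite signs in Ror1, Ror2, Fzd8 and Wnt3, and the widest gap was that of Ror1 at 1.64.

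No secreted antagonist was called, and 6 of the 7 tested had a difference above 0, beside 10614 of all 19418 gene names tested. Sfrp1, which binds Wnt ligands outside the cell, read 10737, 10091, 14848 and 13541 in controls and 14258, 24656, 14619 and 25795 in Gen-treated mice. Gen replicates 2 and 4 stood far above the controls and the other 2 Gen arrays lay between the highest and the next control, so the groups overlapped. The log2 difference was 0.65 (SE 0.24, limma adjusted p = 0.194), and a second probe gave 0.75. Dkk3, a divergent member of the Dickkopf family, had 0.30 (SE 0.12, limma adjusted p = 0.207), and Sfrp5, detected on 3 control arrays and all Gen arrays, had -0.31 (SE 0.15, limma adjusted p = 0.302). Sfrp2, Sfrp4, Frzb and Dkk2 had differences between 0.05 and 0.24.

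Of the R-spondins, which amplify Wnt signaling through the Lgr receptors, Rspo2 was up-regulated from a signal near the limit of detection. It was read by 2 probes, at chr15:43029149-43029208 and chr15:43082425-43082484 (minus strand, mm7), and the first 30 bases of each are shown because the call rests on the first alone, the second being well above background on no array.
Rspo2 first probe: ccttaggtcagtttgtccttagattatgaa
Rspo2 second probe: cagcgtattcagatggaattttcacaaagt
Control signals of the first probe were 64.9, 20.1, 54.7 and 15.3, of which 1 was well above background, and Gen signals were 125, 371, 93.6 and 122, all well above background. All Gen arrays lay above all controls, with Gen replicate 2 highest. With the control arrays raised to their detection limits Rspo2 was 3.37-fold higher in Gen-treated mice, and between 2.50-fold and 3.96-fold with 1 array left out. In the fit, which Rspo2 entered through the Gen group alone, the log2 difference was 2.23 (SE 0.58, limma adjusted p = 0.102), a size that rests on control signals mostly under those limits. It also depends on how background is handled, since after normexp correction the difference was 0.80 (adjusted p = 0.204) and the call was lost. Left-out arrays gave differences from 1.80 to 2.56, and the call was lost without control replicate 2 (2.00) and without control replicate 4 (1.87). Rspo1, with signals from 54612 to 79147 on the 8 arrays, had a log2 difference of -0.15 (SE 0.11, limma adjusted p = 0.502), and Rspo3 had -0.22 (SE 0.23, limma adjusted p = 0.622). Without scaling between arrays both turned positive, at 0.095 and 0.020, below the median of 0.26 for all tested probes in that fit.

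The nuclear effectors and the feedback gene Axin2, itself a target of β-catenin and a scaffold for its destruction, did not pass the test. Axin2 read 2256, 1536, 1705 and 1849 in controls and 2156, 1752, 2386 and 2999 in Gen-treated mice. The groups overlapped, and the log2 difference was 0.33 (SE 0.19, 95% confidence interval -0.10 to 0.75, limma adjusted p = 0.369). Ctnnb1 had differences of 0.13, 0.19 and 0.46 by its 3 probes, the last with a limma adjusted p of 0.223. Tcf7 had 0.14 (SE 0.26), which turned to -0.084 without Gen replicate 2 and -0.031 without control replicate 1, and Lef1 had -0.08 (SE 0.19).

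Single arrays stood out among the tested members. How often each array was highest or lowest was not counted over all gene names, so this is not shown to be a trait of the family. Gen replicate 2 was the highest of the 8 arrays for 13 of the 45 tested genes, among them Wnt4, Wnt6, Wnt10a, Wnt10b, Rspo2 and Sfrp4, and control replicate 3 was the highest for 1. Gen replicate 4 was the lowest array for 10 genes, including Wnt5a and Wnt7a. The SD of log2 signals was larger among Gen arrays than among control arrays for 33 of 45 members (73.3%), beside 58.0% of all gene names tested. The median SD of the members was 0.27 in Gen-treated mice and 0.23 in controls, beside 0.24 and 0.20 over all gene names tested.

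**Figure D4:**
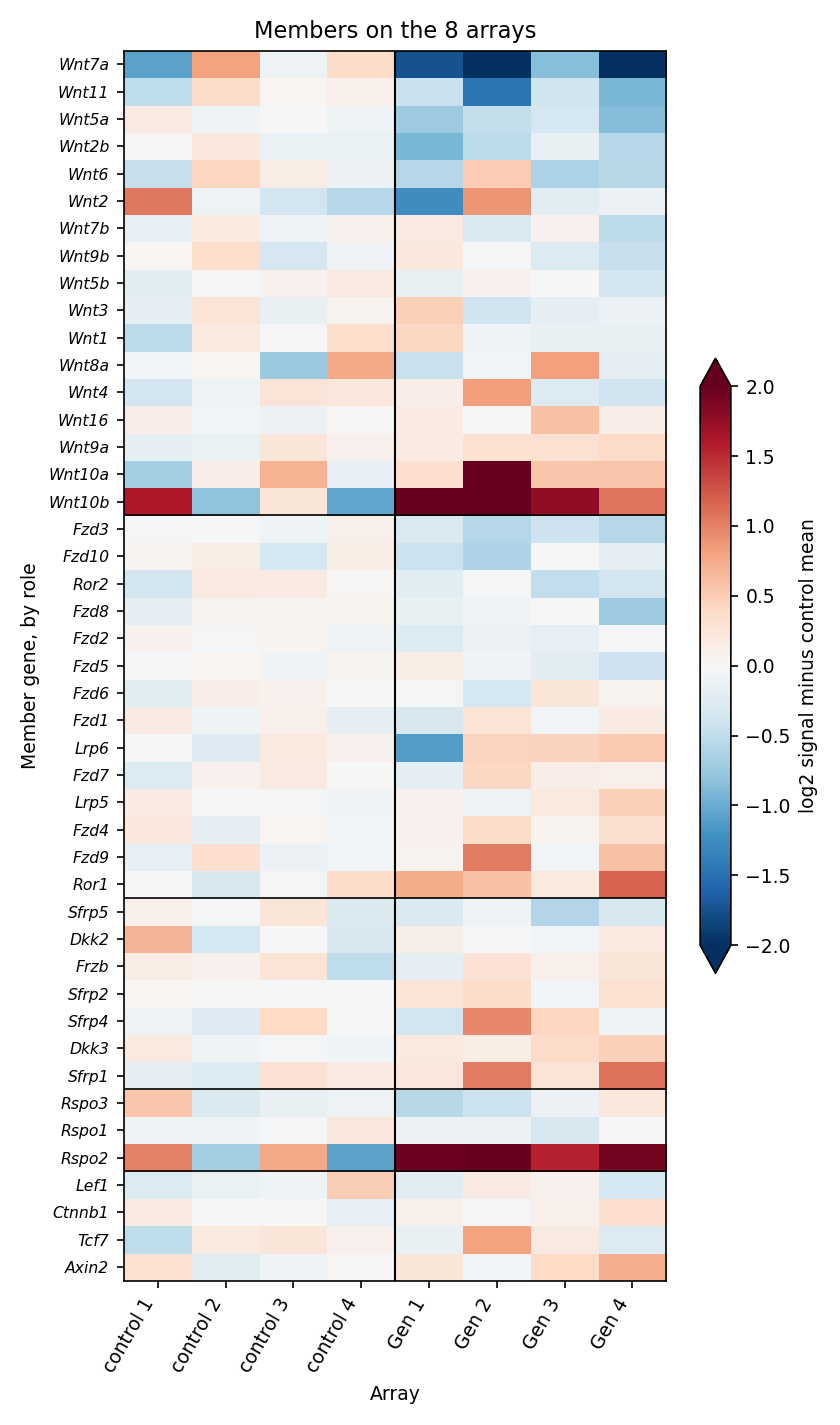
Log2 signal minus the control mean (color, limited to 2 in either direction) of the 45 tested members (rows, by role, in the order of their difference) on the 4 control and 4 Gen arrays (columns). Wnt7a is low on the 4 Gen arrays and on control replicate 1, Rspo2 is higher on all Gen arrays than on any control array, Wnt10b is lower on Gen replicate 4 than on control replicate 1, and Gen replicate 2 holds the highest value for 13 genes.

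Other genes of the pathway were taken from lists of secretion factors, further receptors, inhibitors, planar polarity proteins, the cytoplasmic relay, nuclear partners and known targets. Of 66 genes listed 64 were tested, and 5 (7.81%) had a limma p under 0.01, 2 up-regulated and 3 down-regulated, near the 7.70% of all gene names. Their median log2 difference was -0.01. The 2 of 64 with an adjusted p under 0.05 were Tle1 and Sp5, where 1.24% of all gene names had one. Tle1, a Groucho co-repressor that binds Tcf factors, read 13810, 21339, 20443 and 19171 in controls and 9807, 10136, 8659 and 8990 in Gen-treated mice, with no overlap. Its log2 difference was -0.97 (SE 0.15, limma adjusted p = 0.0349). Sp5, a transcription factor and direct target of β-catenin, read 595, 828, 682 and 721 in controls and 1281, 1223, 1405 and 1877 in Gen-treated mice. All Gen arrays lay above all controls, with a log2 difference of 1.02 (SE 0.16, limma adjusted p = 0.0390). Cd44, a hyaluronan receptor listed as a target and also carried by leukocytes, rose by 0.83 (SE 0.19, limma adjusted p = 0.0805). Vangl2, the core planar polarity protein that acts with Fzd3 and Wnt5a in other tissues, fell by 0.41 (SE 0.11, limma adjusted p = 0.111). Amer1, a scaffold of the β-catenin destruction complex, fell by 0.44 (SE 0.11, limma adjusted p = 0.0899). The call was lost for Vangl2 in 5 and for Amer1 in 2 of the 8 fits that left out 1 array, with differences of -0.38, -0.42 and -0.37 for Vangl2 without control replicates 1, 3 and 4 and of -0.38 and -0.36 without Gen replicates 1 and 2, and of -0.43 and -0.40 for Amer1 without control replicates 2 and 3. The call held in all such fits for Tle1, Sp5 and Cd44. Over all 18 alternatives the highest adjusted p was 0.173 for Tle1 and 0.121 for Sp5. Tle1 and Cd44 each lost the call in 1 of the 18. None of the 3 secretion factors (Porcn, Wls and Notum), the 9 further receptors or the 4 inhibitors tested was called.

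**Figure D5:**
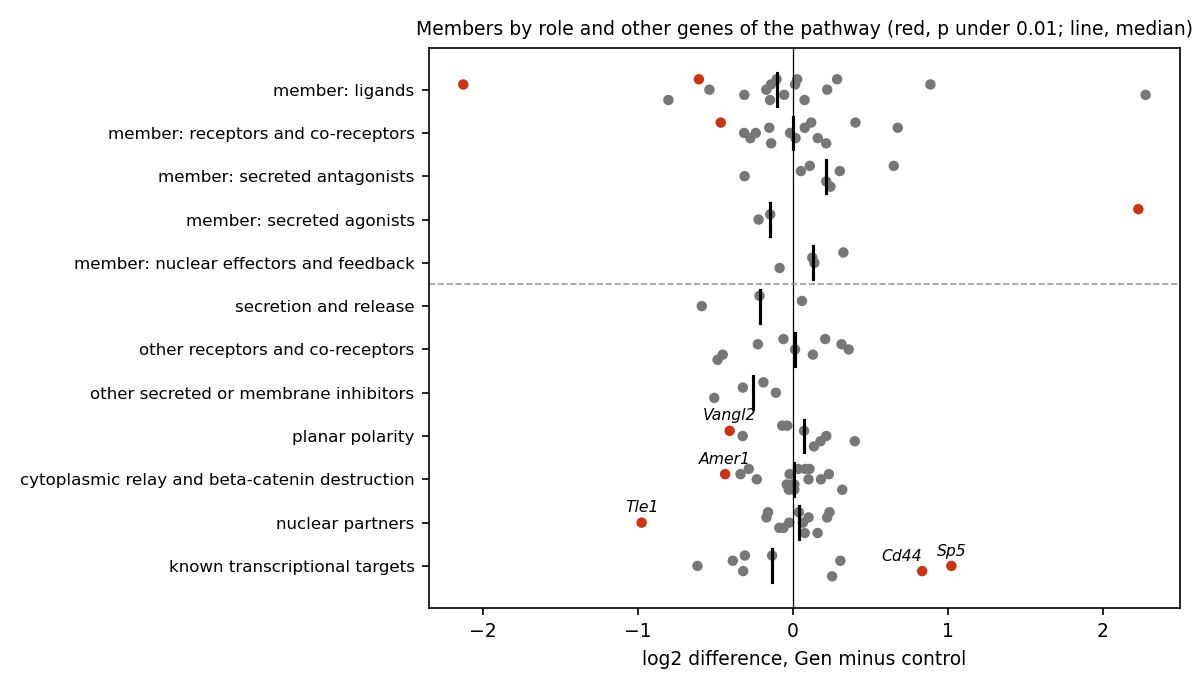
Log2 difference (Gen minus control, horizontal axis) of the 45 tested members by role, above the dashed line, and of 64 other genes of the pathway by list, below it. Red points had a limma p under 0.01 and a black line marks the median, which lay between -0.26 and 0.22 in each row.

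Markers of other cells moved with treatment, and their part in the differences above was not tested. Of 9 tested markers of ovarian steroidogenic and cumulus cells, 6 were well above background on all 8 arrays. Of the 9, 4 (44.4%) were called as higher in Gen-treated mice, beside 4.35% of all gene names. This count does not set apart the markers that passed the filter through 1 group alone. The summed signals of the 9 were 4688–29338 on control and 31734–133065 on Gen arrays, highest on Gen replicate 1. Of 12 leukocyte markers 4 (33.3%) were called as higher, with sums of 14692–20079 and 23633–41123, the last on Gen replicate 2. That array was the highest for 13 of the 45 tested members, among them Rspo2, Wnt4 and Wnt10b. Lhcgr and Amh were well above background on no control array. Of 10 genes listed for the secretory epithelium 2 (20%) were called as lower (Krt19 and Cldn3), beside 3.35% of all gene names. The list also holds keratins, claudins and adhesion genes of epithelium in general, and both called genes are of this kind. Sums were 1099957–1285976 on control and 932496–1288204 on Gen arrays. None of 9 ciliated, 10 stromal, 10 smooth muscle and 6 squamous markers tested was called. All 10 smooth muscle markers had a difference below 0 (median -0.26), beside 8804 of all 19418 gene names tested. In these lists no defining gene of ciliated epithelium, stroma or smooth muscle was missing from the arrays except Mcidas, which had no probe, and the squamous markers Krt6a, Dsg3, Dsc3 and Ivl were well above background on no array.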

How the data were processed

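RNA of 4 control and 4 Gen oviduct samples was measured on arrays with 1 dye. For each array the authors deposited a scan processed by Agilent Feature Extraction 9.5, whose processed signal is a linear intensity adjusted for background and not scaled between arrays. The deposited table of the series held the same intensity in each of the 45018 spots. Rosetta Resolver, which the study used after these values, was not applied. Members and gene lists were chosen with earlier results of these data known.

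The 1639 control spots and outlier spots were left out, log2 signals averaged per probe, and the 75th percentile of each array set to the common mean. The 28955 probes well above background on every array of 1 group or of both were compared with lmFit and eBayes in limma 3.58.1 (R 4.3.3, with version 1.17.8 of data.table), with Benjamini-Hochberg adjustment, and plotted with matplotlib 3.10.9. Probes below background were left out because they are called in bulk and move the adjusted p of the rest. A called gene had an unadjusted p under 0.01. Named genes were Wnt7a, Wnt5a and Wnt4, every called member, the 3 lowest p in each role, members detected in 1 group alone, members whose probes differ in sign, and called pathway genes. The steps were tested on simulated data. Probe positions and sequences are those of the array design (NCBI build 35, mm7). Exons and untranslated regions were not assigned, since a genome of this build was not used here. Sequences were read from the files, and those of probes in 1 block are given to 30 bases.

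The alternatives were no filter, a filter on all 8 arrays, quantile normalization, no scaling, normexp (offset 50), the methods' t-test, outlier spots kept, a robust fit with an intensity trend, a replicate block, averaging a gene's tested probes, and each array left out. The number of arrays limits the precision.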

Additional observations from a re-analysis of the deposited data

Results flagged for a closer look

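Within a group of 4 arrays a gene was marked when the gap between the most distant array and its nearest neighbor took up more of the group's range of log2 signals than the 95% critical value of Dixon's test. This held for 6 of the 82 sets of 4 arrays looked at (7.32%), and chance marks about 1 in 20. For Lrp6, the β-catenin pathway co-receptor, the share was 0.951 among Gen arrays, with Gen replicate 1 at 239 and the others at 709–749. Without that array the log2 difference of Lrp6 was 0.48 (SE 0.13, limma adjusted p = 0.150) and passed the threshold of an unadjusted p under 0.01, beside 0.08 with it. For Wnt6 the share was 0.926 (Gen replicate 2 at 2120, the others at 957–1015), and for Wnt10a it was 0.876 (Gen replicate 2 at 171, the others at 50.2–58.4). For Wnt1 it was 0.855, with Gen replicate 1 at 45.1 and the others at 30.4–32.2. Among controls the share was 0.917 for Fzd8 (control replicate 1 at 331, the others at 388–393) and 0.895 for Lrp5 (control replicate 1 at 2389, the others at 2039–2074).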

How the results depend on the processing

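The count of called members (4) was 7 with no filter, 2 with the methods' t-test and 2 with the replicate block, and 2 to 6 with 1 array left out. Of all probes 7.37% were called in the main fit and 17.2% with no filter. The share was 6% with the t-test, 5.21% with the block, and 4.6–8.24% with 1 array left out. The 7 without a filter include Dkk1, Dkk4 and Wnt8b, which were well above background on no Gen array. Members with an adjusted p under 0.05 (0) numbered 6 with no filter (Wnt7a, Wnt5a, Fzd3, Rspo2, Dkk1 and Dkk4), 1 after quantile normalization (Fzd3) and 4 without scaling (Wnt7a, Rspo2, Wnt10a and Wnt10b), and 0 in all fits with 1 array left out. Among all probes such a p was found for 320 of 28955 in the main fit and 6674 of 41173 with no filter. It was found for 277 of 28955 after quantile normalization and 1321 of 28955 without scaling. Other pathway genes called (5) were 2 without scaling, 9 after normexp, and 4 to 6 with 1 array left out. Of all tested probes 7.62% were called without scaling and 8.13% after normexp. Wnt7a had a log2 difference of -2.13 with the methods' t-test (adjusted p = 0.200) and with the block (adjusted p = 0.219), neither called, and -2.55 to -1.73 with 1 array left out. Wnt5a was -0.37 without scaling, where the median of all tested probes was 0.26. Wnt4 ran from -0.18 to 0.23 with 1 array left out. Tcf7 ran from -0.084 to 0.28 with 1 array left out. Ror1 was -0.14 as the mean of its probes. Without scaling Rspo1 was 0.095 and Rspo3 was 0.020. Of the other values of single genes under the alternatives, 306 kept direction and side of the threshold, 19 lost the call and 9 gained it. Same-numbered samples did not deviate together (r = -0.08, 0.11, -0.02 and -0.18), and with the replicate block Wnt5a and Ror1 were the 2 members called. Signals near background limit Rspo2 and Wnt10b.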
